A study of Mus musculus with 12 samples.

Results

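The *Sox* genes encode transcription factors that share an HMG box, the domain with which they bind and bend DNA, and they are sorted into groups by the similarity of that domain. The SoxC, SoxD and SoxE groups each have 3 members in the mouse, which are *Sox4*, *Sox11* and *Sox12* (SoxC), *Sox5*, *Sox6* and *Sox13* (SoxD) and *Sox8*, *Sox9* and *Sox10* (SoxE). These 9 genes were taken by their symbols from 24480 genes in each count table, and all 9 were found and passed the filter on low counts in both mouse lines.

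RNA-seq was performed on the dorsal lateral geniculate nucleus (dLGN), the thalamic nucleus that relays visual signals to the cortex, dissected on postnatal day 0 (P0). There were 4 groups of 3 libraries, and each library was a pool of the dLGNs of 3 animals of one genotype. *Sox2* mutants were Sox2flox/flox;Ror-alphaCre and their controls were Sox2flox/flox or Sox2flox/+ with no Cre. *Nr2f1* mutants were Nr2f1 flox/flox;Ror-alphaCre. The labels of the *Nr2f1* controls name both Ror-alphaCre and no Cre, and the study's methods describe littermates that lacked Cre and had 1 or both alleles floxed. The Cre is inserted in the *Rora* locus, by the methods, so that the mutants also carried a modified *Rora* allele, and the study describes deletion in postmitotic cells of the sensory thalamus. Total counts lay between 39293465 and 50095344 per library. Levels are given as CPM, the counts of a gene relative to the size of its library, after TMM normalization. Libraries are named as in the count tables, CTRL_1, CTRL_2, CTRL_3, MUT_1, MUT_3 and MUT_4 in the *Sox2* line and CTRL_B, CTRL_D, CTRL_E, MUT_A, MUT_B and MUT_C in the *Nr2f1* line, and values are listed in that order.

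SoxC proteins are activators that are abundant in newly formed neurons, where they turn on genes of neuronal differentiation. SoxD proteins lack an activation domain of their own, pair with each other through a coiled coil, and modify the action of other SOX proteins. In the developing cortex SOX5 acts in deep-layer projection neurons and SOX6 in interneurons born in the medial ganglionic eminence, while SOX5 and SOX6 restrain the maturation of oligodendrocyte precursors. SoxE proteins work mainly in glia and neural crest derivatives, SOX9 in radial glia and astrocytes, SOX10 in the oligodendrocyte lineage and SOX8 in both. In cartilage SOX9 acts together with SOX5 and SOX6.

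The targeted genes were lower in their own mutants. *Sox2* measured 361, 363 and 382 CPM in the controls and 116, 150.4 and 152 CPM in the mutants of the *Sox2* line, so that 37.8% of the control mean remained (FDR = 4.83e-05 by edgeR's quasi-likelihood F-test). *Nr2f1*, a nuclear receptor, measured 311, 370.4 and 380.1 CPM in the controls and 105, 151 and 101 CPM in the mutants of the *Nr2f1* line (33.6% of the control mean, FDR = 0.000348). *Sox2* was also lower in *Nr2f1* mutants, at 238, 279 and 212 CPM against 351, 343 and 374 CPM, and MUT_B had the highest remaining level of both genes in that line. In *Sox2* mutants *Nr2f1* measured 227, 313 and 221 CPM against 308, 345 and 344 CPM, with overlapping groups.

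In *Sox2* mutants *Sox5* and *Sox13* of the SoxD group fell to 37.7% and 36.6% of their control means, and *Sox4* and *Sox11* of the SoxC group fell to 55.2% and 70.0%. The third member of each of these groups did not pass the test, with *Sox6* at 135% and *Sox12* at 94.2% of the control mean, nor did any SoxE gene. Differentially expressed genes (DEG) were those with an FDR below 0.01, the FDR being the Benjamini-Hochberg adjusted p-value of edgeR's quasi-likelihood F-test over all genes tested. By this test 4 of the 9 genes were lower and 0 were higher in *Sox2* mutants, while 4.19% of the 15602 genes tested were lower and 3.9% were higher. At an unadjusted p below 0.05, 8 of the 9 were different, against 35% of all genes. With DESeq2 7 of the 9 had an FDR below 0.01, against 15.8% of all genes, the additional members being *Sox6*, *Sox8* and *Sox9*, all higher. The 3 mutants did not overlap with the 3 controls for 7 of the 9, compared with 37.9% of all genes tested. In *Nr2f1* mutants *Sox13* alone passed the threshold, at 60.1% of its control mean, so that 1 of 9 was lower and 0 were higher, against 1.32% and 1.22% of 15600 genes tested. At an unadjusted p below 0.05 there were 6 of the 9 genes, against 24.6% of all genes in that line. DESeq2 gave 4 of the 9, *Sox4*, *Sox11*, *Sox5* and *Sox13*, all lower, against 7.13% of all genes in either direction. Groups did not overlap for 6 of the 9, compared with 28.6% of all genes. Since the tissue was measured in bulk, fewer cells of a type and less RNA per cell cannot be told apart.

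**Figure D1:**
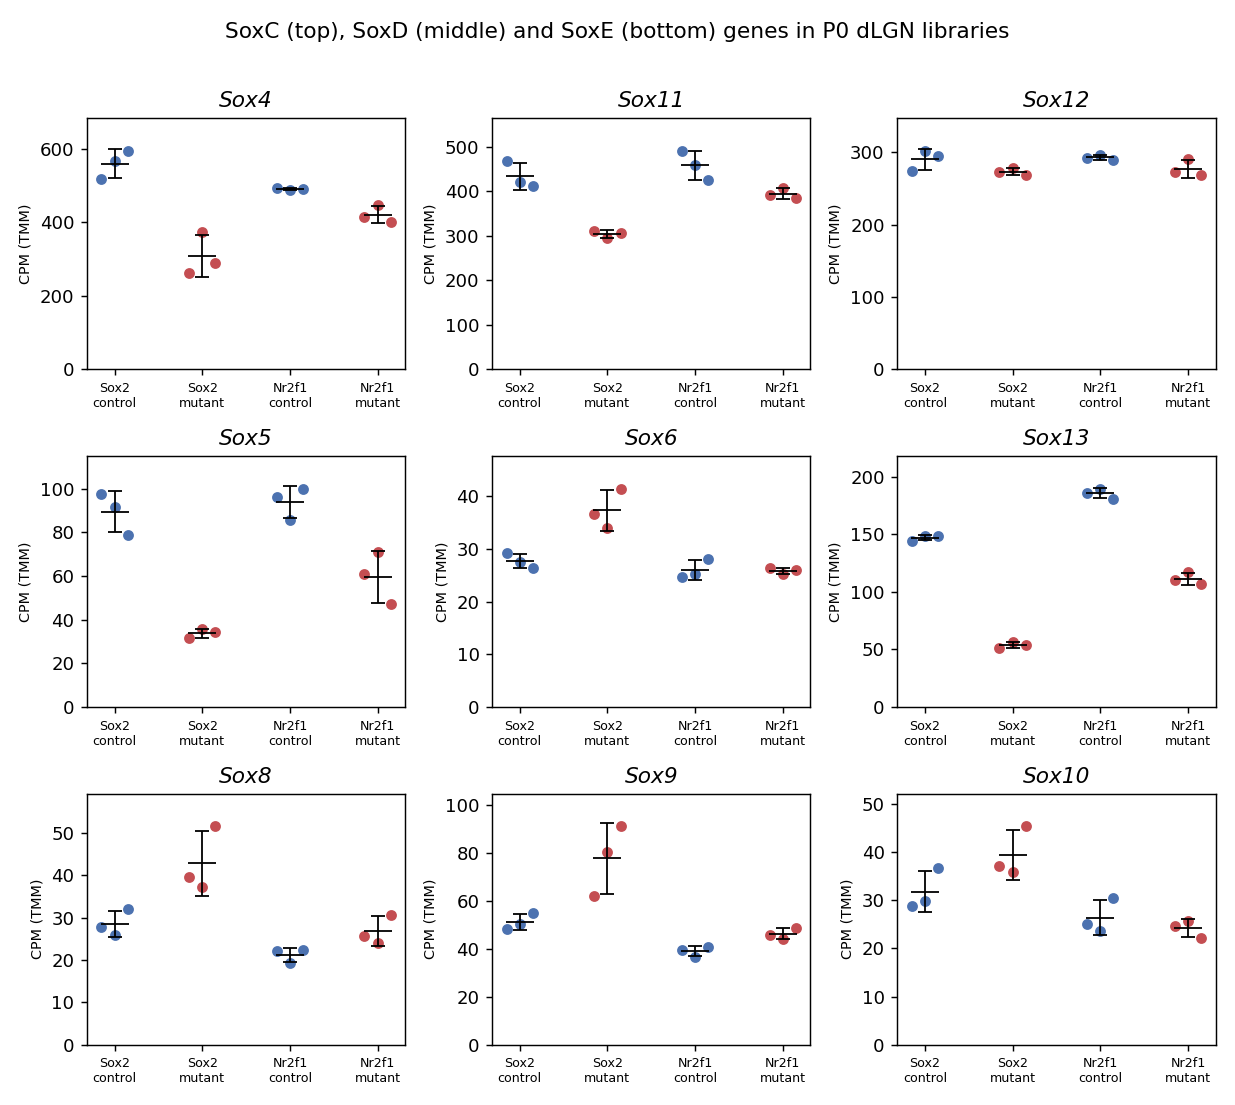
Level of each SoxC, SoxD and SoxE gene (vertical axis, CPM after TMM normalization) in the 3 libraries of each of the 4 groups (horizontal axis). Points are libraries, blue for controls and red for mutants, and bars give the mean and SD. Relative to the control mean, *Sox5* and *Sox13* in *Sox2* mutants are lowest, at 37.7% and 36.6% of it, and *Sox12* in both mutants is at 94.2% and 94.6%.

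Levels of different genes were compared after division by transcript length. In *Sox2* controls *Sox4* had the highest level, at 117 ± 8.11 CPM per kb of its longest transcript (SD, n = 3), followed by *Sox12* (65.1 ± 3.24), *Sox11* (52.2 ± 3.64) and *Sox13* (39.8 ± 0.626), and the ranges of these 4 genes did not overlap. *Sox9*, *Sox5*, *Sox10* and *Sox8* came next with 12.4, 12.3, 11.4 and 9.52 CPM per kb, each overlapping with the next in this order. *Sox6* was lowest at 3.20 ± 0.159 CPM per kb. In *Nr2f1* controls *Sox4* (102 CPM per kb) and *Sox12* (65.8 CPM per kb) were again the highest and *Sox6* (3.00 CPM per kb) the lowest, while *Sox11* (55.1 CPM per kb) and *Sox13* (50.2 CPM per kb) overlapped. The place of *Sox5* and *Sox8* depends on which transcript is used, since with the median transcript length they reached 35.4 and 30.8 CPM per kb in *Sox2* controls, above *Sox9* and *Sox10*.

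*Sox4* and *Sox11* are the SoxC genes best known in young neurons. *Sox4* (RefSeq, GRCm38, chr13:28948919-28953699, minus strand) measured 517, 567 and 594 CPM in *Sox2* controls and 263, 373 and 290.0 CPM in *Sox2* mutants. Every mutant library was below every control library, and MUT_3 was the highest of the mutants. The log2 fold change was -0.86 (SE 0.122, FDR = 0.00145). In the *Nr2f1* line *Sox4* measured 494, 487 and 489 CPM in controls and 413, 446 and 401 CPM in mutants, again without overlap, and the log2 fold change of -0.22 (SE 0.0523) did not pass the threshold (FDR = 0.0336).

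*Sox11* (chr12:27334268-27342718, minus strand) measured 468, 421 and 412 CPM in *Sox2* controls and 311, 294 and 306 CPM in *Sox2* mutants. The mutants lay close together and below all controls, with a log2 fold change of -0.51 (SE 0.0722, FDR = 0.00137). It measured 491, 458 and 426 CPM in *Nr2f1* controls and 391, 407 and 386 CPM in *Nr2f1* mutants, without overlap and with a log2 fold change of -0.22 (SE 0.0596, FDR = 0.0600). Without MUT_4 the log2 fold changes of *Sox4* and *Sox11* in *Sox2* mutants were about as large, at -0.82 and -0.52, but missed the threshold (FDR = 0.0122 and 0.0118).

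*Sox12*, the weakest activator of the group, did not pass the threshold in either line. *Sox12* (chr2:152393611-152398046, minus strand) measured 274, 302 and 294 CPM in *Sox2* controls and 273, 278 and 268 CPM in *Sox2* mutants, with overlapping groups. The log2 fold change was -0.09, with a 95% interval from -0.23 to 0.06. In *Nr2f1* controls it measured 292, 297 and 289.7 CPM and in mutants 272, 291 and 268 CPM, with a log2 fold change of -0.08 (95% interval -0.19 to 0.03). Neither interval includes the value of -0.86 measured for *Sox4* in *Sox2* mutants. As a share of the summed SoxC level per kb, *Sox12* took 27.2%, 28.6% and 27.6% in *Sox2* controls and 39.9%, 35.5% and 38.2% in *Sox2* mutants. *Sox4* took 49.8% in *Sox2* controls and 39.5% in *Sox2* mutants on average.

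The sequences before the start sites of the SoxC genes are shown because 2 of these paralogs fell in *Sox2* mutants and the other one did not pass the test. RefSeq windows of GRCm38.p6, from 250 bases before to 50 bases after a start site, were available for 7 of the 9 genes and were searched on both strands for a SOX-type site (ACAAAG and TCAAAG as well as ACAATG and TCAATG) and for the half-site of nuclear receptors (AGGTCA). A SOX-type site was in 44.0% and the half-site in 16.3% of all 32851 windows of 300 bases. The windows of *Sox4*, *Sox11* and *Sox12* held no SOX-type site, and *Sox4* held 1 half-site, whose first base is at position -162 from the start site. The 250 bases before the start are given 5′ to 3′ on the strand of the gene, with the half-site in capitals, for *Sox4* (chr13:28953700-28953949), *Sox11* (chr12:27342719-27342968) and *Sox12* (chr2:152398047-152398296).
*Sox4*: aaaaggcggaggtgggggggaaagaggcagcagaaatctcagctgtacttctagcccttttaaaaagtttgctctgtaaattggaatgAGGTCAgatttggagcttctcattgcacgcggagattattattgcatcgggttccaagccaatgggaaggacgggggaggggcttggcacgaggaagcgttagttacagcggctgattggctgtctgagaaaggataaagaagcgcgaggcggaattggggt
*Sox11*: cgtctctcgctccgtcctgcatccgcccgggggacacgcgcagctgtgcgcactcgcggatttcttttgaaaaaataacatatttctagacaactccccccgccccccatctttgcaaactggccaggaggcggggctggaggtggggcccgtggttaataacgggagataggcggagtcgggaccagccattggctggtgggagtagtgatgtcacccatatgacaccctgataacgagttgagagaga
*Sox12*: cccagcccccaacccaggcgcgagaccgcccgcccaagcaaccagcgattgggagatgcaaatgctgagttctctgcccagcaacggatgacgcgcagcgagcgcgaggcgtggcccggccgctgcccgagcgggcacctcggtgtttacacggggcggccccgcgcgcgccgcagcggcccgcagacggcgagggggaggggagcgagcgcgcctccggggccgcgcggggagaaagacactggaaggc
The windows of *Sox13* and *Sox8* held neither motif, and the only window of *Sox5*, at a start inside the gene, held 1 SOX-type site. All 6 windows of *Sox6* held a SOX-type site, with 6 sites in one of them. A match of letters is a description and not a measured binding site. The study mapped SOX2 binding in wild-type P0 dLGN with CUT&RUN. It shows SOX2 peaks near *Sox13* and in an intron of *Sox5*. Those peaks were not compared with the windows searched here.

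*Sox13* fell in both lines, with the smallest p of the 9 genes in each. This SoxD gene (chr1:133382300-133424459, minus strand) measured 144, 148 and 148 CPM in *Sox2* controls and 50.9, 56.9 and 53.9 CPM in *Sox2* mutants. The libraries of each group lay within a few CPM of each other and far from the other group. The log2 fold change was -1.45 (SE 0.0652, FDR = 8.27e-06), the rank 2 of all 15602 genes by p-value. In the *Nr2f1* line *Sox13* measured 186, 189.8 and 181 CPM in controls and 110.5, 117 and 107 CPM in mutants. The log2 fold change was -0.73 (SE 0.0501, FDR = 0.000111), rank 9 of 15600 genes. *Sox13* passed the threshold in every one of 15 alternatives in the *Sox2* line and of 14 in the *Nr2f1* line.

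*Sox5* (chr6:143828425-144782287, minus strand) measured 97.4, 91.7 and 78.9 CPM in *Sox2* controls and 31.5, 35.5 and 34.2 CPM in *Sox2* mutants. The highest mutant library was below the lowest control library by a wide margin, and the log2 fold change was -1.41 (SE 0.0915, FDR = 2.85e-05). In *Nr2f1* controls it measured 96.2, 85.5 and 99.96 CPM and in *Nr2f1* mutants 60.8, 70.9 and 47.2 CPM. The mutants were below all controls but spread widely, and the log2 fold change of -0.65 (SE 0.126) missed the threshold (FDR = 0.0147). Without MUT_B the log2 fold change was -0.80 and *Sox5* passed (FDR = 0.00157). Among the *Nr2f1* mutants MUT_B had the most remaining *Nr2f1* and also the lowest summed level of meningeal genes, 1505 CPM. With the level of meningeal genes as a covariate the log2 fold change of *Sox5* was -0.44 (FDR = 0.163). *Sox5* passed under 4 of 14 alternatives in this line. The study itself lists *Sox5* as a DEG in *Nr2f1* mutants at an FDR below 0.01. It reports more DEG in this line than the 396 found here, and the reason for the difference was not tested. It also shows a decrease of *Sox5* RNA by in situ hybridization and of SOX5 protein by immunofluorescence in the embryonic dLGN of both mutants. Several non-coding RNAs of the annotation overlap *Sox5*. Of them *Sox5os3* was in the count tables, with at most 2 counts in a library. Non-coding RNAs annotated over *Sox6* and *Sox4* were not in the tables.

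*Sox6* was higher in *Sox2* mutants, unlike its SoxD relatives, but did not pass the threshold. This gene (chr7:115470872-116040776, minus strand) measured 29.2, 27.5 and 26.5 CPM in *Sox2* controls and 36.6, 33.9 and 41.5 CPM in *Sox2* mutants. All mutants were above all controls, and the log2 fold change of 0.43 (SE 0.0914) missed the threshold (FDR = 0.0108). With RLE normalization its FDR was 0.00969, with DESeq2 0.000384, and it was below 0.01 under 7 of 15 alternatives. In *Nr2f1* controls it measured 24.7, 25.3 and 28.1 CPM and in *Nr2f1* mutants 26.4, 25.3 and 26.0 CPM, with a log2 fold change of -0.01 (95% interval -0.17 to 0.15).

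The make-up of the SoxD group was described by sums per library. The summed SoxD level per kb was 55.9, 56.0 and 54.1 in *Sox2* controls and 22.3, 24.2 and 24.1 in *Sox2* mutants. It was 66.4, 66.1 and 66.1 in *Nr2f1* controls and 41.4, 44.4 and 38.5 in *Nr2f1* mutants. The share of *Sox6* in this sum was 6.03%, 5.65% and 5.64% in *Sox2* controls and 18.9%, 16.2% and 19.9% in *Sox2* mutants. In the *Nr2f1* line it was 4.29%, 4.41% and 4.91% in controls and 7.35%, 6.56% and 7.79% in mutants. *Sox13* remained the largest part of the sum in every library, with 60.6% to 63.6% in *Sox2* mutants and 69.9% to 74.2% in their controls. The summed SoxC level averaged 234 CPM per kb in *Sox2* controls and 162 CPM per kb in *Sox2* mutants. The summed SoxE level averaged 33.3 and 47.2 CPM per kb in these groups, so that SoxE was below SoxD in every *Sox2* control and above it in every *Sox2* mutant. These sums are descriptions and were not tested, and they depend on the transcript lengths used.

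**Figure D2:**
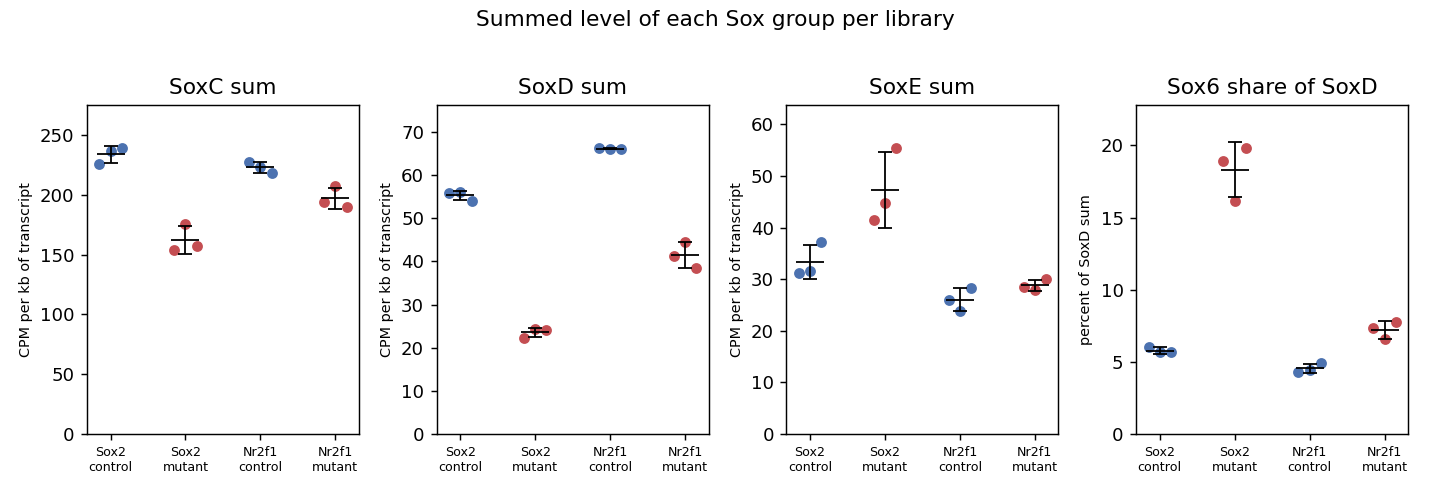
Summed level of the SoxC, SoxD and SoxE genes (vertical axes, CPM per kb of the longest transcript) and share of *Sox6* in the SoxD sum (percent) in the 4 groups (horizontal axes). Points are libraries, blue for controls and red for mutants, with the mean and SD over 3 libraries. The SoxD sum averaged 55.4 in *Sox2* controls and 23.6 in *Sox2* mutants, and the share of *Sox6* averaged 5.77% and 18.3%.

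The SoxE genes had higher mean levels in *Sox2* mutants, of which none passed the threshold. *Sox9* (chr11:112782210-112787757), the SoxE gene of radial glia and astrocytes, measured 48.2, 50.5 and 55.0 CPM in *Sox2* controls and 62.0, 80.3 and 91.1 CPM in *Sox2* mutants. The mutants were above all controls and spread over a wide range, with MUT_1 lowest. Its log2 fold change of 0.60 (SE 0.126) had an FDR of 0.01001, and 9 of 15 alternatives brought it below. Without MUT_1 the log2 fold change was 0.75 (FDR = 0.00138). In *Nr2f1* controls *Sox9* measured 39.6, 36.6 and 40.8 CPM and in *Nr2f1* mutants 45.7, 44.3 and 48.8 CPM, without overlap, with a log2 fold change of 0.25 (SE 0.0671, FDR = 0.0566).

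*Sox8* (chr17:25565893-25570686, minus strand) measured 27.8, 25.9 and 32.0 CPM in *Sox2* controls and 39.6, 37.3 and 51.6 CPM in *Sox2* mutants. The groups did not overlap, MUT_4 was the highest, and the log2 fold change was 0.59 (SE 0.129, FDR = 0.0128). It measured 22.1, 19.2 and 22.3 CPM in *Nr2f1* controls and 25.8, 24.0 and 30.7 CPM in *Nr2f1* mutants, also without overlap, with a log2 fold change of 0.34 (SE 0.104, FDR = 0.0795).

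*Sox10* (chr15:79154913-79164490), which oligodendrocytes need to make myelin, measured 28.7, 29.9 and 36.7 CPM in *Sox2* controls and 37.1, 35.8 and 45.3 CPM in *Sox2* mutants. The groups overlapped, since CTRL_3 was above MUT_3, and the log2 fold change was 0.31 (95% interval 0.04 to 0.58, FDR = 0.0963). In *Nr2f1* controls it measured 25.1, 23.6 and 30.4 CPM and in *Nr2f1* mutants 24.7, 25.7 and 22.2 CPM, with a log2 fold change of -0.12 (95% interval -0.35 to 0.11). *Sox10* was below an FDR of 0.01 under 0 of 15 and 0 of 14 alternatives in the 2 lines.

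**Figure D3:**
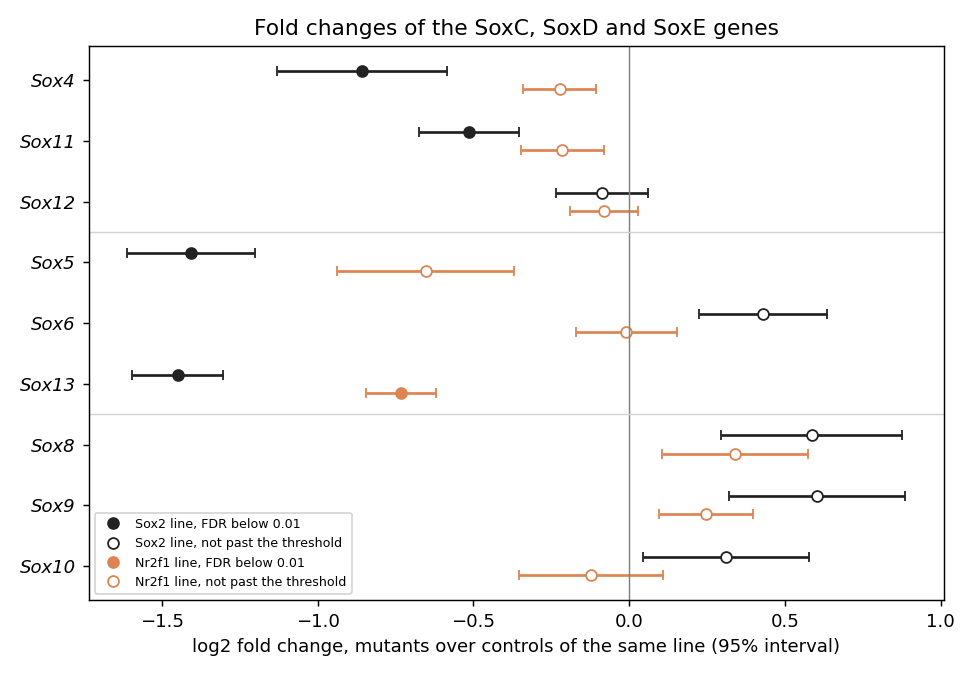
Log2 fold change of mutants over controls of the same line (horizontal axis) with its 95% interval for each of the 9 genes (vertical axis), black for the *Sox2* line and orange for the *Nr2f1* line. Filled points have an FDR below 0.01. *Sox13* is filled in both lines, at -1.45 and -0.73, and the SoxE genes are open points that lie above 0 except *Sox10* in the *Nr2f1* line, at -0.12.

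The decrease of *Sox13* was larger in *Sox2* mutants than in *Nr2f1* mutants. In one fit over the 12 libraries with each line's mutants against its own controls, the log2 fold change in the *Sox2* line minus that in the *Nr2f1* line was -0.71 for *Sox13* (SE 0.0774, FDR = 0.000171). It passed under all 19 alternatives. The control level of *Sox13* was 147 ± 2.31 CPM in the *Sox2* line and 186 ± 4.35 CPM in the *Nr2f1* line. These levels were normalized within each line, and the difference between them was not tested. By this test 1 of the 9 genes differed, against 1.44% of 15989 genes tested, and 7 of the 9 had an unadjusted p below 0.05, against 16.2% of all genes. The difference was -0.74 for *Sox5* (SE 0.172, FDR = 0.0292), -0.63 for *Sox4* (SE 0.147, FDR = 0.0312) and 0.45 for *Sox6* (SE 0.114, FDR = 0.0502). DESeq2 gave *Sox4*, *Sox5* and *Sox6* as well as *Sox13* an FDR below 0.01, against 3.4% of all genes. For *Sox12* the difference was 0.00 with a 95% interval from -0.16 to 0.16. It was not resolved for *Sox8* (95% interval -0.14 to 0.65), *Sox9* (0.02 to 0.70, FDR = 0.277), *Sox10* (0.06 to 0.81, FDR = 0.222) and *Sox11* (-0.48 to -0.10, FDR = 0.0996).

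Among the other *Sox* genes, 9 of 10 were tested. *Sox2* was lower in both lines, with a log2 fold change of -0.55 in *Nr2f1* mutants (FDR = 0.00635). *Sox1*, a close relative of *Sox2* in neural progenitors, rose in *Sox2* mutants (log2 fold change 0.52, SE 0.0922, FDR = 0.00481), and *Sox18*, an endothelial gene, rose in *Nr2f1* mutants (0.61, SE 0.102, FDR = 0.00759). Their medians were 0.52 in *Sox2* mutants and 0.32 in *Nr2f1* mutants, beside 0.0005 and 0.014 over all genes tested, and 8 of 9 were above 0 in each line. Of these 9 genes 0 passed in *Nr2f1* mutants when any 1 library other than MUT_B was left out. In *Sox2* mutants the count went from 2 to 1 without CTRL_1, CTRL_2, MUT_1 or MUT_3 and to 6 without CTRL_3.

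Genes of the pathways and cells in which these factors work were counted in lists taken from general knowledge. Of 15 genes of early neuron differentiation tested, the setting of SoxC proteins, 2 fell and 0 rose in *Sox2* mutants, and 0 passed in *Nr2f1* mutants, where 4 had an unadjusted p below 0.05 and 1 passed with DESeq2. *Nhlh2*, a bHLH factor of newborn neurons, fell from 51.5 ± 6.68 to 23.3 ± 2.34 CPM in *Sox2* mutants (log2 fold change -1.14, FDR = 0.000206), and *Elavl4*, the gene of a neuronal RNA-binding protein, had a log2 fold change of -0.41 (FDR = 0.00354). The count of 2 was 1 without CTRL_1, CTRL_2, MUT_1 or MUT_4 and 4 without CTRL_3. *Tead2*, a known SoxC target, had log2 fold changes of 0.54 (FDR = 0.0350) and 0.34 (FDR = 0.0764) in the 2 lines. The median of the list was -0.01 in *Sox2* mutants and -0.10 in *Nr2f1* mutants.

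For SoxD genes the lists were deep-layer projection neurons and interneurons of the medial ganglionic eminence. In *Sox2* mutants 6 of 14 deep-layer genes rose and 0 fell (median log2 fold change 1.08), with *Sox5* itself lower. Among them were *Zfpm2* (0.85, FDR = 0.000602), a transcriptional cofactor, and *Ldb2* (0.95, FDR = 0.00396). *Nfib* (0.69, FDR = 0.000679) was another, and this gene is also on the list of astrocytes and radial glia. Of 15 interneuron genes 4 rose and 0 fell (median 1.16), with *Erbb4*, the neuregulin receptor of interneurons, at 0.65 (FDR = 0.000695) and *Maf* at 0.89 (FDR = 0.00273). In *Nr2f1* mutants 0 of 14 and 0 of 15 passed in either direction (medians 0.04 and 0.17), with 3 and 4 at an unadjusted p below 0.05 and 1 and 0 by DESeq2. The deep-layer count in *Sox2* mutants was reduced to 2 and the interneuron count to 1 when any 1 of CTRL_1, CTRL_2 and MUT_4 was left out. The summed deep-layer level was 393 to 481 CPM in *Sox2* controls and 495 to 635 CPM in *Sox2* mutants. The interneuron sum was 129 to 134 CPM and 195 to 231 CPM in these groups. In *Nr2f1* controls and mutants the deep-layer sum was 428 to 439 CPM and 500 to 507 CPM. The interneuron sum was 123 to 128 CPM and 117 to 170 CPM there, with overlap. Of 10 cartilage genes that SOX9, SOX5 and SOX6 control together, *Col9a1* fell from 16.7 ± 2.89 to 5.12 ± 0.518 CPM in *Sox2* mutants (log2 fold change -1.71, FDR = 0.000116) and *Col11a1* rose (0.68, FDR = 0.00591), with 1 gene left without CTRL_1, CTRL_2, MUT_3 or MUT_4. In *Nr2f1* mutants 0 of 8 passed, with 6 at an unadjusted p below 0.05 and 2 by DESeq2.

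Glial lists accompany the SoxE genes. Of 20 genes of astrocytes and radial glia 12 rose and 0 fell in *Sox2* mutants, all 20 had a log2 fold change above 0, and the median was 0.61, close to the values of *Sox9* and *Sox8*. *Agt*, the precursor of angiotensin, rose from 16.01 ± 1.26 to 45.1 ± 5.22 CPM (log2 fold change 1.49, FDR = 3.88e-05), and *Gfap*, the astrocytic intermediate filament, had a log2 fold change of 1.28 (FDR = 0.000108). In *Nr2f1* mutants 1 of 20 rose, the water channel gene *Aqp4* (0.38, FDR = 0.0085), and the median was 0.18. DESeq2 gave 3 genes of this list in *Nr2f1* mutants, and 0 passed when any 1 library other than MUT_B was left out. The summed level of the list lay between 4991 and 5880 CPM in *Sox2* controls and between 7599 and 8705 CPM in *Sox2* mutants, and between 4114 and 4252 CPM and between 4588 and 5230 CPM in *Nr2f1* controls and mutants. Of 11 genes of oligodendrocyte precursors 2 rose in *Sox2* mutants, *Nkx2-2* (0.53, FDR = 0.00411) and *Ptprz1* (0.41, FDR = 0.00849), with a list median of 0.33, and 0 passed in *Nr2f1* mutants (median 0.11, 1 at an unadjusted p below 0.05 and 0 by DESeq2). All 11 had a log2 fold change above 0 in *Sox2* mutants, but 9 did not pass. Among these 9 were *Olig1* (0.22, FDR = 0.214) and *Olig2* (0.20, FDR = 0.364). *Ptprz1*, which is part of the precursor sum, measured 557 ± 17.3 CPM in *Sox2* controls and 739 ± 72.2 CPM in *Sox2* mutants. The summed precursor level was 1162 to 1312 CPM in *Sox2* controls and 1445 to 1697 CPM in *Sox2* mutants. It was 1031 to 1059 CPM in *Nr2f1* controls and 1104 to 1160 CPM in *Nr2f1* mutants. Leaving out single libraries brought the astrocyte count in *Sox2* mutants to between 6 (without CTRL_1, CTRL_2 or MUT_4) and 17 and the precursor count to between 0 (without CTRL_1) and 3, with 1 without any of the others except CTRL_3.

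Of 12 genes tested of the myelin list, the setting of SOX10, 1 rose and 1 fell in each line. These were *Mbp* and *Mag* in both lines, and their calls in *Sox2* mutants were lost when any 1 of CTRL_1, CTRL_2, MUT_1 and MUT_4 was left out. In *Nr2f1* mutants the count of 2 went to 1 without CTRL_B, CTRL_D or MUT_A and to 4 without MUT_B. *Mbp*, a major myelin protein gene, rose from 18.9 ± 3.67 to 32.9 ± 5.48 CPM in *Sox2* mutants (FDR = 0.00787) and from 17.7 ± 0.645 to 32.2 ± 1.32 CPM in *Nr2f1* mutants (FDR = 0.000185). *Mag*, the gene of a myelin adhesion protein, fell from 12.4 ± 0.735 to 7.43 ± 1.31 CPM (FDR = 0.00587) and from 14.4 ± 0.545 to 7.03 ± 1.28 CPM (FDR = 0.0018). *Opalin*, a gene of mature oligodendrocytes, was at 0 in all control libraries. Neural crest and Schwann cells also express *Sox10*. Of 8 genes of these cells tested 0 passed in either line (2 and 3 at an unadjusted p below 0.05, 0 by DESeq2), and *Foxd3*, the early crest factor, was at 0 in all libraries.

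**Figure D4:**
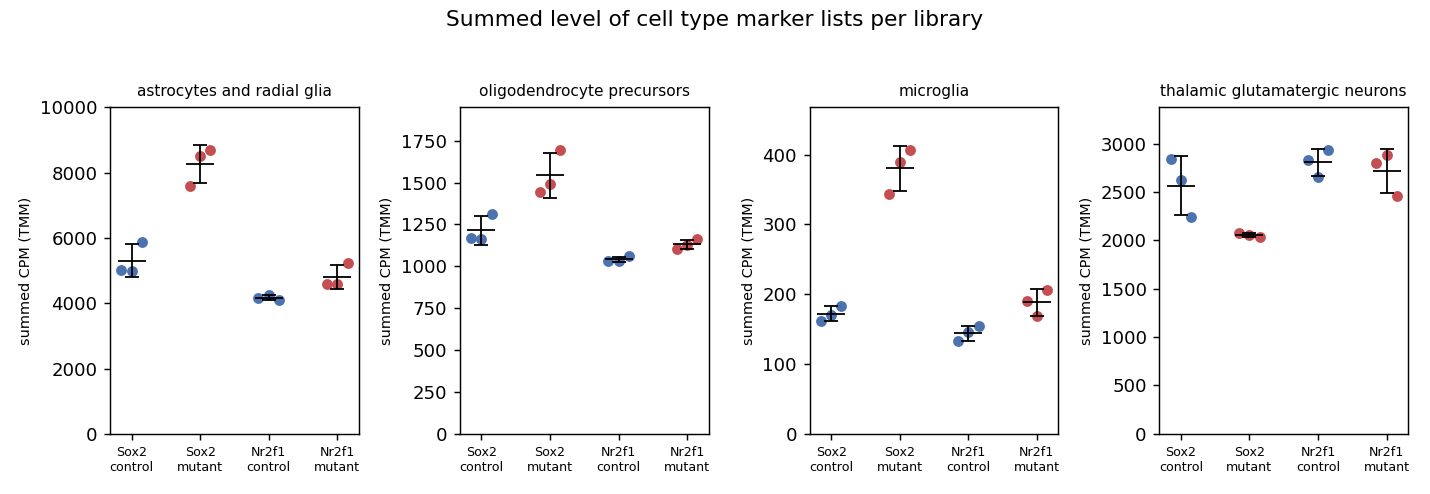
Summed level (vertical axes, CPM after TMM normalization) of 4 marker lists in the 3 libraries of each group (horizontal axes), blue for controls and red for mutants, with the mean and SD. The astrocyte, precursor and microglial sums of the *Sox2* mutants lie above all their controls, with lowest values of 7599, 1445 and 344 CPM. The neuronal sum lies below, at 2032 to 2076 CPM.

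Markers of other cells moved in the same libraries. Of 12 microglial genes 11 rose in *Sox2* mutants, where their summed level was 344 to 407 CPM against 162 to 184 CPM in controls, and 0 passed in *Nr2f1* mutants, where DESeq2 gave 5 and leaving out MUT_B gave 5 (168 to 206 CPM against 132 to 154 CPM). Of 14 genes of thalamic glutamatergic neurons 7 fell and 2 rose in *Sox2* mutants, with a summed level of 2032 to 2076 CPM against 2237 to 2840 CPM, and 2 fell and 2 rose in *Nr2f1* mutants, where the sums overlapped. The count of 4 in *Nr2f1* mutants was 0 without CTRL_D, 1 without CTRL_B, 2 without CTRL_E or MUT_A and 6 without MUT_B, and it was 8 with DESeq2. *Rora*, in which the Cre is inserted, fell from 335 ± 33.6 to 85.7 ± 12.7 CPM in *Sox2* mutants (FDR = 2.07e-05) and measured 380 ± 34.9 and 319 ± 52.4 CPM in the *Nr2f1* line (FDR = 0.204). Of 12 meningeal genes 0 passed in each line, with 7 and 8 at an unadjusted p below 0.05 in the *Sox2* and *Nr2f1* lines and 1 and 0 by DESeq2, and in *Nr2f1* mutants 8 passed without MUT_B. Their summed level reached 4475 CPM in 1 *Sox2* mutant and 3404 CPM in 1 *Nr2f1* mutant, against at most 2717 and 1603 CPM in controls. With the meningeal level as a covariate the same 4 and 1 members passed, but the sizes of some changes moved. In *Sox2* mutants the log2 fold change was then -1.09 for *Sox4* (FDR = 9.99e-05) and 0.46 for *Sox9* (FDR = 0.0588). The male-specific genes were at 0 in MUT_A, and with them as a covariate the same members passed too. Of the remaining lists, 1 of 10 genes of GABAergic neurons rose in *Sox2* mutants, as did 1 of 7 genes of the choroid plexus, in both cases *Otx2*. With DESeq2 7 of the 10 GABAergic genes passed, and leaving out single libraries gave 0 to 2, with 0 without CTRL_1, MUT_1 or MUT_4. The choroid plexus count was 0 without CTRL_1, CTRL_2, MUT_1 or MUT_4. In *Nr2f1* mutants 0 of the 10 GABAergic genes passed, and 6 did without MUT_B. Of 12 endothelial genes 1, *Sox18*, rose in *Nr2f1* mutants, where 11 had an unadjusted p below 0.05, DESeq2 gave 5, and 6 passed without MUT_B but 0 without any 1 of the other libraries. In *Sox2* mutants 0 of the 12 passed, with 9 at an unadjusted p below 0.05 and 0 by DESeq2, and 9 passed without CTRL_3. Of 12 genes of dividing cells *Cdca7* alone passed in *Sox2* mutants, where it fell, and 4 passed without CTRL_3. A log2 fold change above 0 was found for 11 of the 12 in these mutants (median 0.31). An unadjusted p below 0.05 was found for 9 of the 12, against 35% of all genes. Genes of pericytes (8 tested) and red blood cells (5 and 6 tested) had 0 calls with edgeR and with DESeq2, and 3 pericyte genes passed in *Sox2* mutants without CTRL_3. The part of these cell types in the values of the 9 genes was not tested.

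The genes most like each member were found by Pearson's r of the log2 level, taken relative to the control mean of the line, over the 12 libraries and 15397 genes. These are descriptions, and because mutant and control libraries stand apart, r reflects mostly the change between them. *Sox5* was nearest to *AI593442*, *Myo16* and *Shisa9* (r = 0.993, 0.992 and 0.992), and *Sox13* to *Adgrl2*, *Lbh* and *Ccdc69* (0.989, 0.988 and 0.988). *Sox4* was nearest to *Ptpn22*, *2900005J15Rik* and *Shb* (0.982, 0.976 and 0.976), and *Sox11* to *Carm1*, *Gjd2* and *Cacna1c* (0.988, 0.985 and 0.984). *Sox9* was nearest to *Elovl5*, *Acsf2* and *Gltp* (0.976, 0.967 and 0.965), *Sox8* to *Mavs*, *Ncf1* and *Chst3* (0.972, 0.968 and 0.961), and *Sox6* to *Gyg*, *Lyrm2* and *Arsb* (0.947, 0.946 and 0.943). The values were lower for *Sox12*, with *Evl*, *Npdc1* and *Gnl1* (0.912, 0.904 and 0.903), and for *Sox10*, whose nearest genes were *Aldoc*, an astrocyte marker of the list above, *Snapc2* and *Fam50a* (0.903, 0.899 and 0.886).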

How the data were processed

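Per the paper's methods and the labels, the authors aligned paired reads with STAR to the mouse RefSeq transcriptome (mm10) and obtained expected counts per gene with RSEM. They deposited these estimated counts without normalization in 1 table per line. Whether counting used strand is not given in the sources used here. Of the values 7.77% were not whole and were rounded. Columns name a group but not a single sample, so libraries were assigned to groups only. Whether the pools within a group are separate litters is not stated.

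Genes were filtered with filterByExpr (minimum count 10, minimum total 15), normalized with TMM and tested with glmQLFit and glmQLFTest of edgeR 4.0.16 in R 4.3.3, each line separately. DEG had an FDR below 0.01. The difference between lines was the interaction in one fit over 12 libraries. SE is the log2 fold change divided by the square root of F. Levels per kb used GENCODE M21 transcript lengths, and positions and promoters came from RefSeq (GRCm38.p6). Tests were checked on simulated data with counts drawn independently for each gene and library. Differences in tissue make-up between libraries were not part of that check. With 3 libraries against 3, an exact permutation test of 1 gene cannot give a two-sided p below 0.1. The libraries' counts differed beyond sampling noise in every pair within a group. The 9 genes, the 19 gene lists and the alternatives were chosen with earlier results of these data known. Named genes were the 9 members, both targeted genes, other *Sox* genes, overlapping genes and each member's 3 nearest genes. Up to 4 genes of a list with the smallest p were named as well. Others, such as *Olig1* and *Olig2*, were named where a sentence on cell types needed them. Alternatives were other filters, RLE and upper quartile normalization, DESeq2 1.42.0, FDR<0.05, one fit over all libraries, a replicate block, covariates and leaving out each library.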

Additional observations from a re-analysis of the deposited data

Results flagged for a closer look

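*Sox13* was flagged because its decrease differed between the 2 mutants by a test of the difference itself. Subtracting the log2 fold change of the *Nr2f1* line from that of the *Sox2* line gave -0.71 (95% interval -0.87 to -0.54, FDR = 0.000171 by edgeR's quasi-likelihood F-test over 15989 genes). All 3 mutants were below all 3 controls in each line.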

How the results depend on the processing

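*Sox13* passed the threshold under every alternative run in both lines and for the difference, with log2 fold changes from -1.51 to -1.40 in *Sox2* mutants, from -0.77 to -0.68 in *Nr2f1* mutants and from -0.74 to -0.66 for the difference. No member's call changed direction. The number of members called in *Sox2* mutants was 4, and it was 7 with FDR<0.05, no filter, upper quartile normalization, DESeq2 or one fit over 12 libraries, which added *Sox6*, *Sox8* and *Sox9*. It ranged from 2 to 6 when a library was left out, with 2 (*Sox5* and *Sox13*) without MUT_4 and 6 without CTRL_3. In *Nr2f1* mutants it was 1, and it was 3 with FDR<0.05, 2 with no filter or one fit over 12 libraries, 4 with DESeq2, and from 1 to 2 when a library was left out, the 2 without MUT_B. For the difference it was 1, and it was 3 with FDR<0.05, 4 with DESeq2, and from 1 to 2 when a library was left out, the 2 without MUT_3 (*Sox4* added) or MUT_C (*Sox5* added). Where an alternative tests fewer or other samples or uses a looser threshold this is its construction, and otherwise the cause was not tested. Over all genes, the calls in *Sox2* mutants were 1261, and 3095 with FDR<0.05, 2468 with DESeq2, 2075 with one fit, and 494 to 2161 when a library was left out. In *Nr2f1* mutants they were 396, and 1154, 1112, 430 and 133 to 868, with 581 without the filter and 84 and 97 with the male-specific and meningeal covariates. For the difference they were 231, and 538 with FDR<0.05, 544 with DESeq2, 117 and 348 with these covariates, and 133 to 308 when a library was left out. With the column number as a replicate block, which only 2 pairs of *Sox2* libraries share, 5 members passed (*Sox9* added) of 1611 genes, and same-numbered libraries had r = 0.217 and 0.206, while CTRL_2 and MUT_1 had 0.236. No block could be fitted in the *Nr2f1* line, whose columns share 1 letter. When a library is left out, the calls rest on 2 libraries in that group.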
